A study of Mus musculus with 6 samples.

Results

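Immediate early genes were followed as a group of 10 in mouse islet cells: *Fos*, *Fosb*, *Jun*, *Junb*, *Jund*, *Egr1*, *Atf3*, *Ier2*, *Nr4a1*, and *Npas4*. The members were chosen by gene symbol, and each symbol matched exactly 1 of the 32285 genes in the files. Single-cell RNA-Seq had been made from islets of 3 WT and 3 β cell–specific 14-3-3ζ–KO (β14-3-3ζ–KO) mice, of strain C57/BL6 by the labels and C57BL/6J by the study's methods and 12 to 14 weeks old, with 1 library for each replicate number. The KO mice carried Ins1-CreThor, a Cre recombinase driven from the insulin 1 gene, together with *Ywhaz* alleles floxed around exon 4, so that *Ywhaz*, which encodes the scaffold protein 14-3-3ζ, was deleted in β cells only. The labels call the controls WT, and by the study's methods they were littermates that also carried Cre. Islets had recovered overnight in culture before they were dispersed with trypsin, and dead cells had been removed, so all levels below are those of dispersed cells in both genotypes.

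Immediate early genes are transcribed within minutes of a stimulus from factors already present in the cell, with no need for new protein. Fos and Jun family proteins pair to form AP-1, a transcription factor that binds the sequence TGANTCA. *Egr1*, *Atf3*, *Nr4a1*, and *Npas4* encode other transcription factors, and *Ier2* encodes a nuclear protein. In β cells, these genes are known to respond to membrane depolarization, calcium, and cAMP, and in many tissues they respond to growth factors and stress.

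Promoters are shown for *Fos*, *Fosb*, *Jun*, and *Junb*, the Fos and Jun members whose replicate differences in β cell–like cells are described below. Each window runs 5′ to 3′ on the gene's strand, from 250 bases before the first base of the RefSeq gene to 50 bases from that base on (GRCm38.p6), with the searched motifs in capitals. The windows lie at chr12:85473640-85473939 (plus strand) for *Fos*, chr7:19309996-19310295 (minus strand) for *Fosb*, chr4:95052173-95052472 (minus strand) for *Jun*, and chr8:84978699-84978998 (minus strand) for *Junb*.
*Fos*: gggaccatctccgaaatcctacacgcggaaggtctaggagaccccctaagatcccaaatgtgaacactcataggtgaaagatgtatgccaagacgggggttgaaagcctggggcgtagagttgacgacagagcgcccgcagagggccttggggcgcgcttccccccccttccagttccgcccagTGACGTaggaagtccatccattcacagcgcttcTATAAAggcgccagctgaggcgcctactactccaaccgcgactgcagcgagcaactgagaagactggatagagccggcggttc
*Fosb*: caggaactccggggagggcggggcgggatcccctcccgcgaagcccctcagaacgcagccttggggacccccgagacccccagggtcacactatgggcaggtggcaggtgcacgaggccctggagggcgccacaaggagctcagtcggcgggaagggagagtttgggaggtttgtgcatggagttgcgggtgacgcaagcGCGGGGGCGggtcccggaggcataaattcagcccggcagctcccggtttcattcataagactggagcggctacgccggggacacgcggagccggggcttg
*Jun*: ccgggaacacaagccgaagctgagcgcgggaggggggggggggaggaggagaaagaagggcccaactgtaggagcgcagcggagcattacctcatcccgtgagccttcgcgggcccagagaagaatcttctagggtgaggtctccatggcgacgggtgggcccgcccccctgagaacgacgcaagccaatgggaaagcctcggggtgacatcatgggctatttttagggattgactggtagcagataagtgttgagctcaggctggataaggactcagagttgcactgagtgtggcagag
*Junb*: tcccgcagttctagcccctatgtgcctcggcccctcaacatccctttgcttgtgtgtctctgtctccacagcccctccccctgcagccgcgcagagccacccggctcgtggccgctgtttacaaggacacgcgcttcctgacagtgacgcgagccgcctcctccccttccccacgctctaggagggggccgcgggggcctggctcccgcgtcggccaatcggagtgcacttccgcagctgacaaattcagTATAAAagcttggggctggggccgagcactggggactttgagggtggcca

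The capitals in *Fos* mark a core of the cAMP response element, TGACGT, which starts 66 bases before the first base of the gene, and a TATA box, TATAAA, which starts 33 bases before it. *Fosb* held the EGR motif GCGGGGGCG, and *Junb* held TATAAA. *Jun* held none of the motifs searched. Both strands were searched, also for the full cAMP response element TGACGTCA (which contains the core), the AP-1 motif TGANTCA, and the CArG box. None of these 3 was in the windows of the 8 members searched. *Ier2* had no window, and that of *Egr1* was not used, so nothing is said of their motifs. Of 32544 different windows of all genes, 7.55% held the core, 13.6% TATAAA, 2.93% the EGR motif, 1.80% the full element, 7.79% the AP-1 motif, and 1.64% a CArG box. *Npas4* held the core in 2 places and *Atf3* in 1, and *Nr4a1* held the EGR motif. These matches describe letters within a short window.

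The libraries held between 74083947 and 98294915 UMIs, where a UMI stands for 1 captured mRNA molecule, over 4400 to 10722 barcodes. After filters, 25803 cells remained, between 1839 and 7646 per library, and pairs of libraries shared 7 to 27 barcode sequences before filtering. Of these cells, 14773 were assigned to 10 classes, called β cell–like and so on because the names were rebuilt from markers. In the β cell–like cells, *Ins1* and *Ins2* were found in 100% and *Mafa* in 96.6%. The same cells also held *Gcg* in 99.9%, *Ppy* in 98.5%, and *Sst* in 93.2%, so finding a hormone does not by itself separate classes. The δ factor *Hhex* was found in 2.06% of them, and the macrophage marker *C1qa* in 39.5%. *Hhex* was found in 88.8% of δ cell–like cells, *Csf1r* in 95.4% of macrophage-like cells, and *Pecam1* in 89.5% of endothelial-like cells, but *Col1a1* in only 42.7% of stellate or mesenchymal-like cells and *Cd3e* in 67.3% of T cell–like cells. Among *Gcg*, *Sst*, and *Ppy* with *Pyy*, the second hormone reached at least 50% of the first in 64.7% of δ cell–like and 8.37% of α cell–like cells. δ Cell–like cells were named by more *Sst* than *Gcg*, so *Ppy* with *Pyy* could be the first hormone there.

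The deletion was checked first. *Ywhaz* in all β cell–like cells stood at 161, 174, and 170 CPM (UMIs of a gene summed over cells, scaled to the same total in every library) in WT replicates 1 to 3 and at 19.7, 16.6, and 19.3 CPM in KO replicates 1 to 3. The KO β cell–like cells that still held a *Ywhaz* UMI, 1292 cells, were then left out as the study's methods describe. Since this choice removes *Ywhaz* from KO, its level there is no finding. The choice left 4282 β cell–like cells (627, 851, and 875 in WT, and 653, 678, and 598 in KO).

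β Cell–like cells had the lowest or nearly the lowest levels of most members. The mean over 6 libraries was lowest in β cell–like cells among the 10 classes for *Jun*, *Junb*, and *Ier2*, and all β cell–like libraries lay below all α cell–like libraries for *Junb* and *Ier2*. For *Jund*, a member of the Jun family that many resting cells express, macrophage-like cells had a lower mean. About 4 in 10 UMIs of β cell–like cells were hormone transcripts (42.5% to 47.9%), which lowers every other gene's share, so levels are also given with the 7 hormone genes left out of the total. On that scale, β cell–like cells kept the lowest means of *Junb* and *Ier2*. Their *Jun* mean (87.7 ± 33.8 CPM) did not differ beyond its spread from that of B cell–like cells (88.2 ± 27.5 CPM). The highest β cell–like library of *Junb* (135 CPM) lay above the lowest α cell–like library (116 CPM). The *Jund* mean of β cell–like cells (394 ± 50.3 CPM) exceeded those of T cell–like (352 ± 52.2 CPM), stellate or mesenchymal-like (341 ± 132 CPM), and macrophage-like cells. Because classes were built from the same cells, levels between classes are described without a test.

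**Figure D1:**
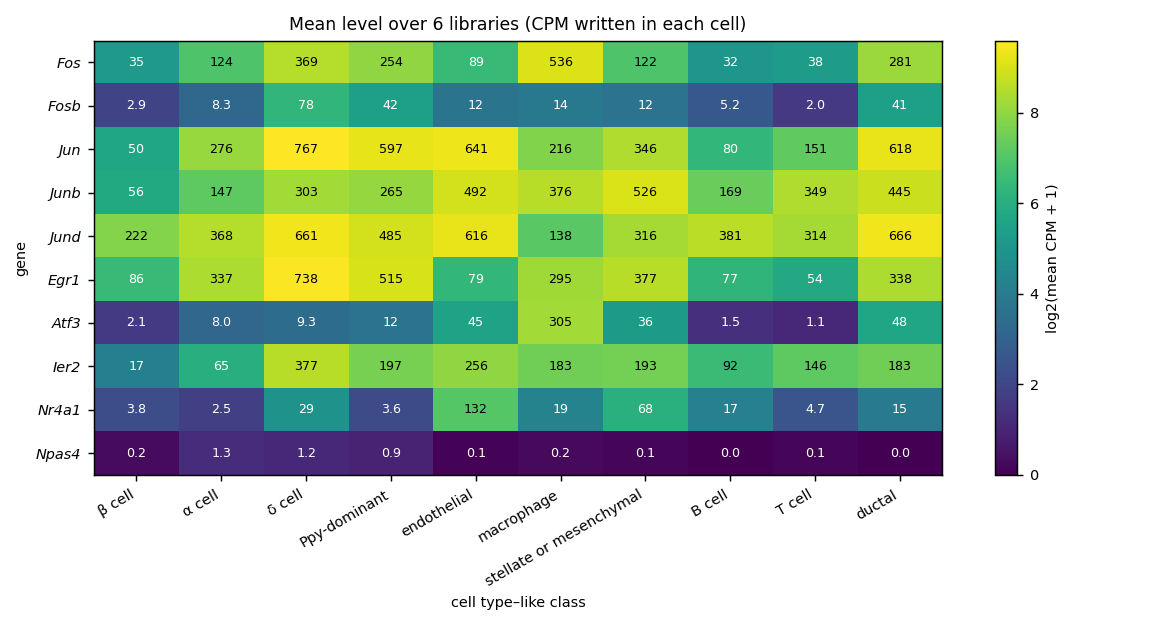
Mean CPM over 6 libraries of each immediate early gene (rows) in each cell class (columns), written in the fields and colored by log2(CPM + 1). δ Cell–like cells had the highest mean CPM for *Fosb*, *Jun*, *Egr1*, and *Ier2* (for *Jun*, *Ppy*-dominant cells with hormone genes left out), macrophage-like cells for *Fos* and *Atf3*, and *Npas4* was near 0 in every class.

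Of the endocrine classes, δ cell–like cells had the highest mean CPM for 8 members, and *Ppy*-dominant cells and α cell–like cells had it for *Atf3* and *Npas4*, respectively. With hormone genes left out, *Ppy*-dominant cells had higher means than δ cell–like cells also for *Jun* (1109 ± 153 against 1020 ± 33.3 CPM), *Junb* (493 ± 83.5 against 403 ± 53.3 CPM), and *Jund* (902 ± 122 against 879 ± 75.4 CPM), and the means of *Egr1* were 957 ± 101 and 982 ± 166 CPM, with overlapping libraries in each case. *Jun*, the central subunit of AP-1, had 787, 738, and 818 CPM in WT δ cell–like libraries and 768, 742, and 747 CPM in KO, against 84.2, 48.2, and 39.2 CPM in WT β cell–like libraries and 60.5, 31.5, and 33.5 CPM in KO. *Egr1*, a zinc finger factor, had a mean of 738 ± 121 CPM (SD, n = 6) in δ cell–like cells, against 337 ± 40.0 in α cell–like cells and 85.9 ± 24.9 in β cell–like cells. The libraries of the β, α, and δ cell–like classes did not overlap for *Jun* or *Egr1* on either scale. *Ier2* had 377 ± 83.1 CPM in δ cell–like cells and 16.8 ± 3.85 CPM in β cell–like cells. The δ-to-β ratio of *Ier2* ran from 14.2 to 35.2 over the libraries, and from 10.6 to 25.7 with hormone genes left out, so δ cell–like cells had more *Ier2* than β cell–like cells on both scales in all 6 libraries.

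*Fosb*, which encodes a Fos family protein, was found in 5.39% of β cell–like and 8.50% of α cell–like cells, but in 39.4% of δ cell–like and 40.1% of ductal-like cells. Its level was 115, 54.5, and 44.6 CPM in WT δ cell–like libraries and 139, 57.5, and 57.3 CPM in KO, against a mean of 8.32 ± 5.30 CPM in α cell–like cells and 2.87 ± 2.79 CPM in β cell–like cells (n = 6). All δ cell–like libraries lay above all α cell–like libraries, while the *Ppy*-dominant cells, with a mean of 42.0 ± 25.9 CPM, overlapped with both δ cell–like and ductal-like cells. *Nr4a1*, an orphan nuclear receptor, separated δ from the other endocrine classes as well: 29.0 ± 8.01 CPM in δ cell–like cells, against 3.76 ± 0.697 in β cell–like, 3.64 ± 2.56 in *Ppy*-dominant, and 2.50 ± 1.37 in α cell–like cells. The last 3 overlapped.

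Nonendocrine classes each had their own leading members. Macrophage-like cells had the most *Fos*, 576, 495, and 696 CPM in WT and 496, 487, and 465 CPM in KO, and their lowest library lay above the highest δ cell–like library, at 407 CPM. With hormone genes left out, the ranges overlapped, from 485 to 712 CPM in macrophage-like and from 455 to 556 CPM in δ cell–like cells. The same cells had 305 ± 73.9 CPM of *Atf3*, a stress-responsive factor of the ATF family, and the next class, ductal-like cells, had 48.2 ± 11.6 CPM. Endothelial-like cells had the most *Nr4a1*, 132 ± 24.1 CPM, above the next class, stellate or mesenchymal-like cells at 67.7 ± 36.3 CPM, in 6 of 6 libraries, although the ranges overlapped. *Junb* was high in stellate or mesenchymal-like (526 ± 214 CPM), endothelial-like (492 ± 61.9 CPM), and ductal-like cells (445 ± 101 CPM), which did not differ beyond their spread. *Jund* reached like levels in ductal-like (666 ± 61.1 CPM) and δ cell–like cells (661 ± 65.5 CPM), and the first was higher in 3 of 6 libraries, while with hormone genes left out the means were 719 ± 41.3 and 879 ± 75.4 CPM. In B cell–like and T cell–like cells, the *Fos* levels, 32.0 ± 16.3 and 38.4 ± 34.6 CPM, overlapped with those in β cell–like cells, 35.3 ± 15.9 CPM.

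*Npas4*, a factor induced by depolarization and calcium in neurons and β cells, was almost absent. β Cell–like cells held 6, 4, and 6 UMIs in WT and 4, 2, and 8 in KO, or 0.129 to 0.422 CPM. It was found in 0.537% of β cell–like and 1.70% of α cell–like cells, and no ductal-like cell had a UMI. Its mean was 1.31 ± 0.749 CPM in α cell–like cells, from 18 UMIs, and 0.224 ± 0.103 CPM in β cell–like cells, from 30 UMIs. At these counts, *Npas4* was not tested between genotypes in any class, and its values are not read as differences.

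The share of cells with a UMI differed between members and with depth. Each cell was thinned to 5000 UMIs to make total depths equal, which kept 4146 of the 4282 β cell–like cells. These UMIs include hormone transcripts, which made up 42.5% to 47.9% of UMIs in β cell–like and 44.3% to 48.5% in *Ppy*-dominant sums. They made up 23.2% to 26.7% in δ cell–like and 1.13% to 8.41% in macrophage-like sums. Thinned shares are lowered accordingly, and shares of cells were not computed with hormone genes left out. *Jund* was then found in 63.8% of β cell–like cells, *Egr1* in 26.1%, *Junb* in 22.2%, *Jun* in 17.9%, *Fos* in 13.7%, and *Ier2* in 6.58%. At full depth, with a median of 28855 UMIs per β cell–like cell, these shares were 95.7%, 51.1%, 59.4%, 49.7%, 36.2%, and 29.1%. No islet class is known to lack these genes, so a background of free RNA could not be measured in this way. The lowest thinned shares in another class were 8.57% for *Fos* and 0.996% for *Atf3*, both in T cell–like cells, whose full median depth was 4891 UMIs. The thinned *Atf3* share in β cell–like cells, 0.917%, was below that and is not read as expression, and the *Jun*, *Junb*, and *Ier2* shares in β cell–like cells were the lowest of all classes. In δ cell–like cells, the thinned shares were 86.7% for *Jun*, 86.3% for *Egr1*, 64.4% for *Fos*, and 23.0% for *Fosb*.

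**Figure D2:**
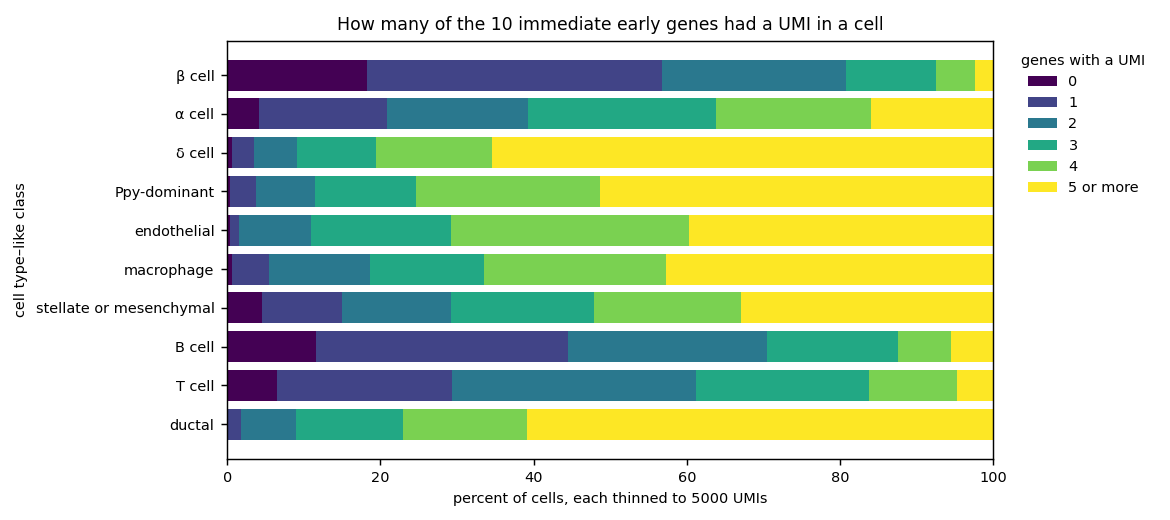
Percent of cells (horizontal axis) in each class (vertical axis) with a UMI of 0, 1, 2, 3, 4, or at least 5 of the 10 genes after each cell was thinned to 5000 UMIs. At least 5 genes were found in 2.34% of β cell–like cells and in 65.4% of δ cell–like cells. The 5000 UMIs include hormone transcripts, whose share was larger in β cell–like than in δ cell–like cells.

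Cells differed in how many members they held at once. None of the members was detected in 18.2% of thinned β cell–like cells, and 1 was found in 38.5%. In δ cell–like cells, 0.617% held none. Among thinned β cell–like cells, 3 or more members were found in 33.1%, 19.4%, and 17.8% in WT replicates 1 to 3, and 24.6%, 10.8%, and 9.62% in KO replicates 1 to 3. Both replicate 1 libraries stood above the other 4, and each KO library stood below the WT library of its number. δ Cell–like cells showed no such order, with 86.5% to 91.3% in WT and 90.1% to 93.3% in KO libraries.

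Members were found together in β cell–like cells more often than the product of their shares within each library gives. *Fos* and *Egr1* were both present in 324 thinned β cell–like cells, where that product gives 157 (ratio 2.06), and *Fos* and *Ier2* in 85 cells, where it gives 39.2 (ratio 2.17). For *Fos* and *Jun*, the ratio was 1.55, and for *Jun* and *Junb* it was 1.31. Pairs with *Jund* had ratios near 1, such as 1.06 for *Fos* and *Jund*. In δ cell–like cells, where most cells held these genes, the ratio for *Fos* and *Egr1* was 1.11. Cells of 1 library share its depth and handling, so these ratios are descriptions. Of the UMIs of *Fos* in thinned β cell–like cells, 54.9% came from 5% of the cells, compared with 19.1% for *Jund* and, in δ cell–like cells, 22.3% for *Fos*. These shares rest on 803 and 4740 UMIs in 4146 β cell–like cells and on 1226 UMIs in 648 δ cell–like cells. Such a share rises as UMIs per cell fall, and no comparison at equal level was made. The shares therefore do not show that *Fos* was confined to fewer cells.

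Next, KO and WT β cell–like cells were compared to ask whether loss of 14-3-3ζ changed these genes. All 6 members that could be tested, *Fos*, *Jun*, *Junb*, *Jund*, *Egr1*, and *Ier2*, had an estimate below 0 in KO. None was called at an FDR of 0.05 by edgeR when libraries were treated as unpaired. In that edgeR fit, 2 of the 6 had an unadjusted p under 0.05, as had 503 of all 9587 genes tested. The members' median log2 fold change was −0.37, against 0.00 over all genes tested. With replicate number in the model, *Egr1* was called, at an estimated 0.62 log2 units lower in KO (log2 fold change −0.62, SE 0.06, FDR 0.00357). A member was tested where it was found in over 15% of the cells of either genotype, and *Fosb*, *Atf3*, *Nr4a1*, and *Npas4* were below that.

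*Egr1* (chr18:34859823-34864984, plus strand, mm10) had 120, 95.1, and 103 CPM in WT replicates 1 to 3 and 79.8, 56.3, and 61.0 CPM in KO replicates 1 to 3. Every KO library lay below every WT library. The unpaired log2 fold change was −0.61 (SE 0.12, unadjusted p = 0.000611, FDR 0.868). Of 9587 genes tested, only *Ywhaz* was called in the unpaired fit (0.0104%), a call fixed in advance by the choice of KO cells. With replicate number, 13 were called (0.136%), 1 of them a member. The labels do not say that replicate numbers pair the libraries. In β cell–like cells, deviations from the genotype means correlated at r = 0.58, 0.52, and 0.18 between libraries of the same number. Between different numbers, r was at most 0.10. For replicate 3 this pairing is weak, so both fits are given. *Egr1* was also called by DESeq2 (FDR 0.00555) and by edgeR without the filter on low genes (FDR 0.0443). When all KO β cell–like cells were kept, including those with a *Ywhaz* UMI, its log2 fold change was −0.51 (FDR 0.831).

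*Ier2* followed the same order, with 23.2, 17.5, and 17.9 CPM in WT and 16.6, 13.0, and 12.7 CPM in KO, and no overlap between genotypes. Its log2 fold change was −0.39 (SE 0.14, FDR 0.868), and with replicate number it was −0.39 (SE 0.08, FDR 0.0826). Such separation with KO below WT was found for 2 of the 6 tested members and for 10.3% of all genes tested. *Fos* had 57.5, 29.8, and 34.3 CPM in WT and 50.6, 17.4, and 21.9 CPM in KO. Genotypes overlapped because KO replicate 1 stood above WT replicates 2 and 3, yet each KO library was below the WT library of the same number. With replicate number, *Fos* had a log2 fold change of −0.43 (SE 0.09, FDR 0.0770) and *Jun* −0.36 (SE 0.07, FDR 0.0770), neither past the threshold. *Junb* (−0.17, SE 0.21) and *Jund* (−0.11, SE 0.11) had smaller estimates in the unpaired fit, with FDRs of 0.921 and 0.905.

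**Figure D3:**
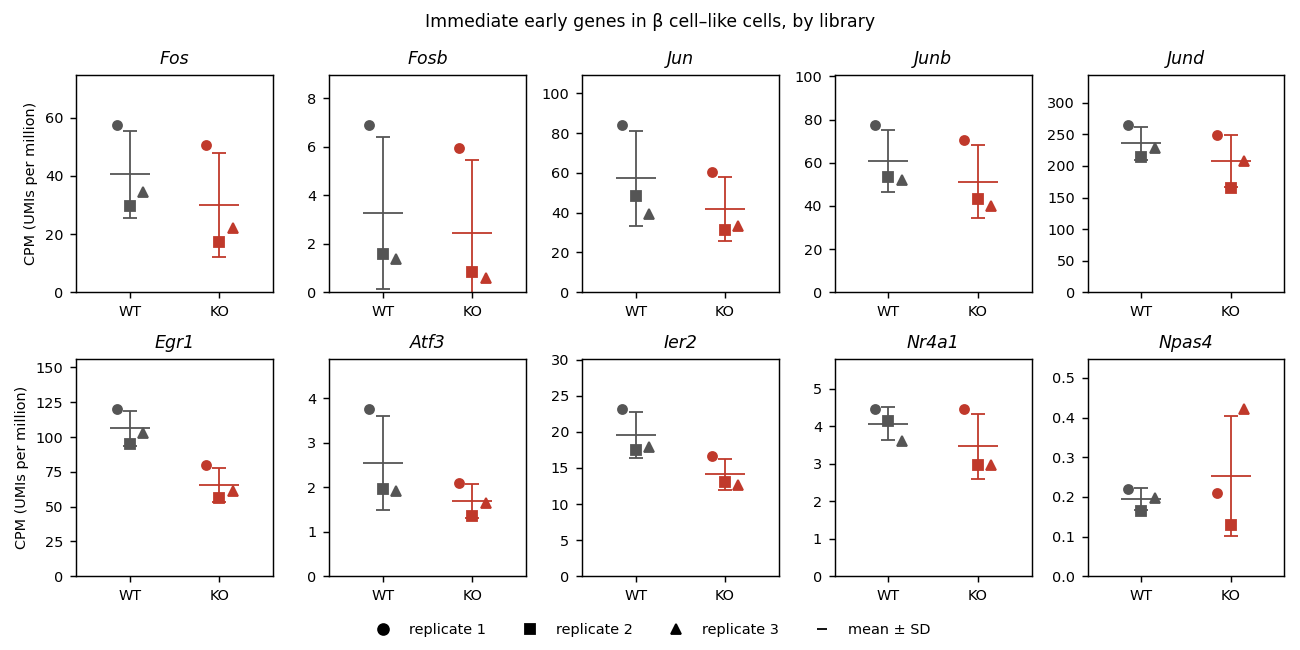
CPM of each immediate early gene (vertical axes, starting at 0) in β cell–like cells of 3 WT (gray) and 3 KO (red) libraries, with a marker shape for each replicate number and lines for the mean ± SD (cut at 0 for *Fosb*). *Egr1* lay between 56.3 and 79.8 CPM in KO and between 95.1 and 120 CPM in WT, and replicate 1 was the highest of its genotype for 9 of the 10 genes.

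The low members gave values only. *Fosb* had 189, 38, and 42 UMIs in WT and 113, 13, and 11 in KO β cell–like sums, or 6.90, 1.56, and 1.39 CPM and 5.93, 0.838, and 0.580 CPM. *Atf3* had 3.76, 1.97, and 1.92 CPM in WT and 2.10, 1.35, and 1.64 CPM in KO. *Nr4a1* lay between 3.60 and 4.46 CPM in WT and between 2.95 and 4.46 CPM in KO. All 3 overlapped between genotypes.

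β Cell–like cells came in 2 clusters, and their shares differed between libraries. Cluster 0 held 2444 of the cells used, with insulin at 34.1% of UMIs against 47.1% in cluster 11, and made up 73.4%, 57.1%, and 64.3% of WT and 66.5%, 23.2%, and 57.5% of KO β cell–like cells. Since *Egr1* was higher in cluster 0 (110 ± 28.5 CPM, n = 6) than in cluster 11 (54.2 ± 7.40 CPM), it is also given within each. In cluster 0 it had 153, 118, and 128 CPM in WT and 93.6, 96.5, and 73.0 CPM in KO, and in cluster 11 it had 53.8, 62.9, and 62.4 CPM in WT and 53.7, 45.7, and 46.6 CPM in KO. The log2 fold change was −0.58 (FDR 1.00) in cluster 0 and −0.33 (FDR 0.597) in cluster 11, and KO was the lower genotype in both. A further cluster of 535 insulin-rich cells with few genes, not named, had 22.3 ± 7.10 CPM of *Egr1* but 13.2 ± 4.02 CPM of *Fosb*, above the *Fosb* mean of 2.87 CPM in β cell–like cells, and with it added the log2 fold change of *Egr1* was −0.58.

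Other measures of the β cell–like libraries were set beside these values. Median UMIs per cell were 39496, 27886, and 32403 in WT and 27471, 21769, and 29778 in KO, after KO cells with a *Ywhaz* UMI, which favors deeper cells, had been left out. With every cell thinned to 5000 UMIs, the log2 fold change of *Egr1* was −0.64. The summed markers of α cells ran from 880 to 1371 CPM in WT and from 1146 to 1708 CPM in KO. Those of δ cells, the endocrine class highest in *Egr1*, ran from 157 to 198 CPM in WT and from 153 to 218 CPM in KO, and the δ factor *Hhex* was at 0.475 to 0.903 CPM over all libraries. Summed macrophage markers ran from 33.3 to 42.0 CPM in WT and from 31.2 to 49.0 CPM in KO, with the defining *Csf1r* at 0.256 CPM or less. The part of depth and of these transcripts in the difference was not tested.

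Replicate number was the larger source of difference for the AP-1 members. In the model with genotype, 4 of the 6 tested members were called for replicate number in β cell–like cells, *Jun* (FDR 0.000737), *Fos* (FDR 0.000737), *Junb* (FDR 0.00256), and *Egr1* (FDR 0.0423), against 7.02% of all genes tested. *Jund* (FDR 0.0553) and *Ier2* (FDR 0.0775) were not called. Replicates 2 and 3 were lower than replicate 1 by log2 differences of −1.10 and −0.95 for *Fos*, −0.75 and −0.98 for *Jun*, and −0.50 and −0.68 for *Junb*. Both replicate 1 libraries lay above the other 4 for *Fos*, *Jun*, *Junb*, and *Jund* among the tested members, and for *Fosb*, *Atf3*, and *Nr4a1* among those not tested. Of all genes tested, 18.2% had that order. *Fosb* showed the largest ratio, with replicate 1 at 4.68 times the mean of replicates 2 and 3 in WT and 8.36 times in KO. Within the β cell–like clusters, *Fos* was 71.2 and 60.2 CPM in the replicate 1 libraries of cluster 0 and 27.8 to 38.7 CPM in the other 4, and 29.7 and 32.4 CPM against 13.7 to 27.2 CPM in cluster 11.

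**Figure D4:**
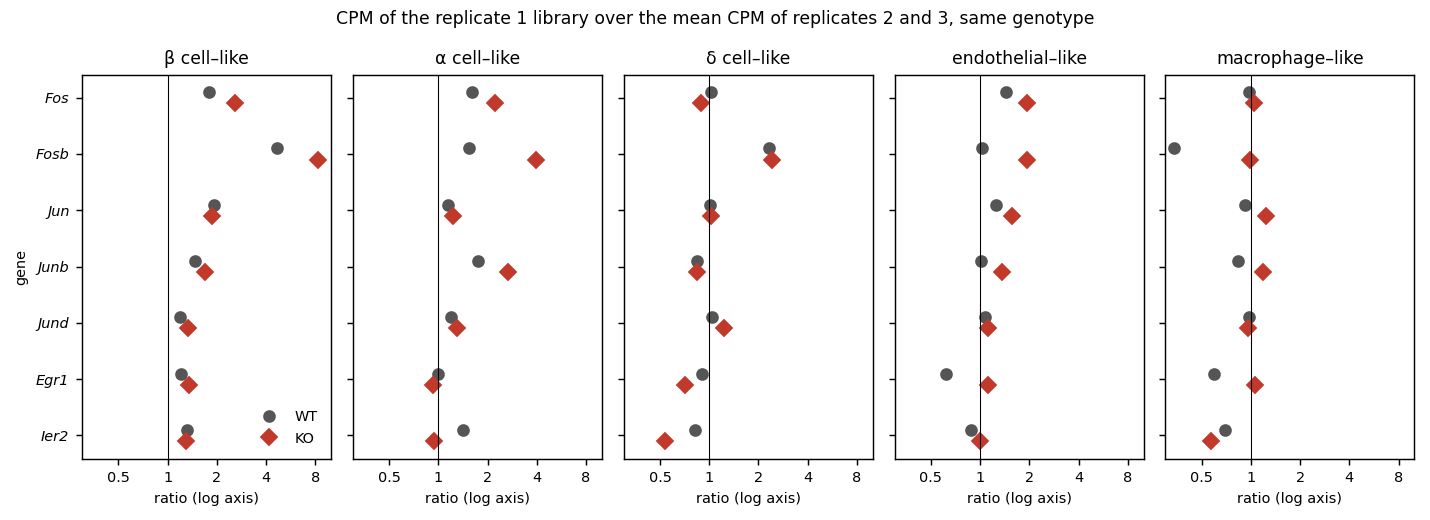
CPM in the replicate 1 library divided by the mean CPM of replicates 2 and 3 of the same genotype (horizontal axes, log scale) for 7 genes in 5 classes, with WT as gray circles and KO as red diamonds. *Fos*, *Fosb*, *Jun*, and *Junb* lay to the right of 1 in both genotypes in β and α cell–like cells, and in δ cell–like cells *Fosb* did so, at 2.31 in WT and 2.42 in KO.

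The pattern was not the same in all classes. In α cell–like cells, replicate 1 was the highest of both genotypes for all 5 Fos and Jun members, an order that 6.34% of the genes tested in this class had, at ratios of 1.59 and 2.21 for *Fos* and 1.75 and 2.66 for *Junb* in WT and KO, while the ratios of *Egr1* were 0.988 and 0.922. In δ cell–like cells, *Fosb* and, less, *Jund* (1.04 and 1.22) had it, as did 13.2% of the genes tested, but *Fos* (1.03 and 0.896), *Jun* (1.01 and 1.03), and *Junb* (0.841 and 0.847) did not. *Ier2* and *Egr1* in δ cell–like cells ran the other way, with the replicate 1 library of KO at 0.534 and 0.711 of the mean of the other KO libraries. Endothelial-like cells had ratios of 1.44 and 1.94 for *Fos* and 1.25 and 1.58 for *Jun*, and macrophage-like cells had ratios near 1 for *Fos* (0.967 and 1.04). These differences between classes were not tested.

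What the replicate numbers stand for is not given in the labels. Of the library measures at hand, barcodes with fewer than 500 genes numbered 1423 in WT replicate 1 and 1172 in KO replicate 1, against 74 to 517 in the other 4 libraries. Over all kept cells, median UMIs per cell were 25539 in WT replicate 1 and 17316.5 in KO replicate 1, against 3318.5 to 10193 in the others. The median mitochondrial share of kept cells was 4.145% and 3.656% in the replicate 1 libraries and at most 3.212% in the others. These medians cover all classes, whose cell numbers differed between libraries. Within β cell–like cells, the mitochondrial share of UMIs, 5.20% and 5.23% in the replicate 1 libraries, lay within the 5.09% to 5.34% of the others. The part of handling in the replicate differences was not tested.

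Other genes of the same response were read from lists of other immediate early genes, their upstream regulators, and heat shock genes. Of 37 further immediate early genes, 20 were tested in β cell–like cells, and none was called for genotype in either direction, with or without replicate number, with 13 estimates below 0 and a median log2 fold change of −0.10, against 0.00 for all genes tested, and 0 had an unadjusted p under 0.05 by edgeR. The lowest unadjusted p values belonged to *Ier5* (log2 fold change −0.20, FDR 0.868), *Bhlhe40* (0.46, FDR 0.868), and *Ier3* (−0.22, FDR 0.875). *Bhlhe40*, a clock and stress-linked repressor, had 18.6 CPM in KO replicate 1 and 9.40 to 10.2 CPM in the other 5 libraries. For replicate number, 5 of the 20 were called, against 7.02% of all genes tested: *Dusp1*, a phosphatase that turns off MAP kinases (FDR 0.000737), *Ppp1r15a*, a stress-induced regulator of translation (FDR 0.00309), *Rhob* (FDR 0.0102), *Zfp36* (FDR 0.0145), and *Gadd45g* (FDR 0.0224). Replicates 2 and 3 differed from replicate 1 by log2 differences of −0.96 and −0.99 for *Dusp1*, −1.01 and −0.75 for *Ppp1r15a*, and −0.53 and −0.57 for *Rhob*. The order was not shared by *Zfp36* (0.00087 and −0.67) and *Gadd45g* (0.33 and −0.13).

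Of 23 kinases, transcription factors, and coactivators that drive these genes, 19 were tested, none was called for genotype by edgeR or had an unadjusted p under 0.05, and the median log2 fold change was 0.00. *Mapk8*, the kinase JNK1 (log2 fold change −0.20, FDR 0.875), *Map2k2* (0.17, FDR 0.886), and *Mapk3*, the kinase ERK1 (0.13, FDR 0.886), had the lowest unadjusted p values. *Map2k2* was the 1 gene of the 19 called for replicate number (FDR 0.0356), where 7.02% of all genes tested were called. Of 12 heat shock genes, 9 were tested and none was called for genotype or replicate number by edgeR, with 1, *Hsph1*, at an unadjusted p under 0.05 for genotype. This chaperone gene had a log2 fold change of −0.23 (FDR 0.868), *Dnajb1* −0.20 (FDR 0.875), and *Hspe1* 0.17 (FDR 0.886).

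The 7 other classes with at least 10 cells in every library were compared in the same way, although *Ywhaz* was floxed out only in β cells. No member was called in any of them, with or without replicate number, where 0.00371% of all gene-by-class tests were called without it and 0.167% with it. Of the members' 51 unpaired edgeR tests in these classes, 6 had an unadjusted p under 0.05. These were 2 of 8 in *Ppy*-dominant (373 of all 9092 genes) and 2 of 8 in macrophage-like cells (450 of 7223). A further 1 of 8 each was in endothelial-like (203 of 7034) and stellate or mesenchymal-like cells (144 of 8420). None was in α cell–like (302 of 8750), δ cell–like (354 of 9513), or B cell–like cells (251 of 3875). In α cell–like cells, *Fos* had 141, 76.1, and 101 CPM in WT and 223, 76.9, and 125 CPM in KO, a log2 fold change of 0.42 (SE 0.31, FDR 1.00), and each KO library was above the WT library of its number. δ Cell–like cells had a log2 fold change of *Egr1* of −0.15 (SE 0.13) and of *Fos* of 0.04 (SE 0.10). In *Ppy*-dominant cells, all 8 tested members had estimates below 0, and the KO libraries lay below the WT libraries for *Fos*, *Atf3*, and *Ier2*, an order that 6.74% of the genes tested in this class had. *Ier2* had a log2 fold change of −0.38 (SE 0.12, unadjusted p = 0.00474, FDR 0.985). WT replicate 1 held only 17 *Ppy*-dominant cells.

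**Figure D5:**
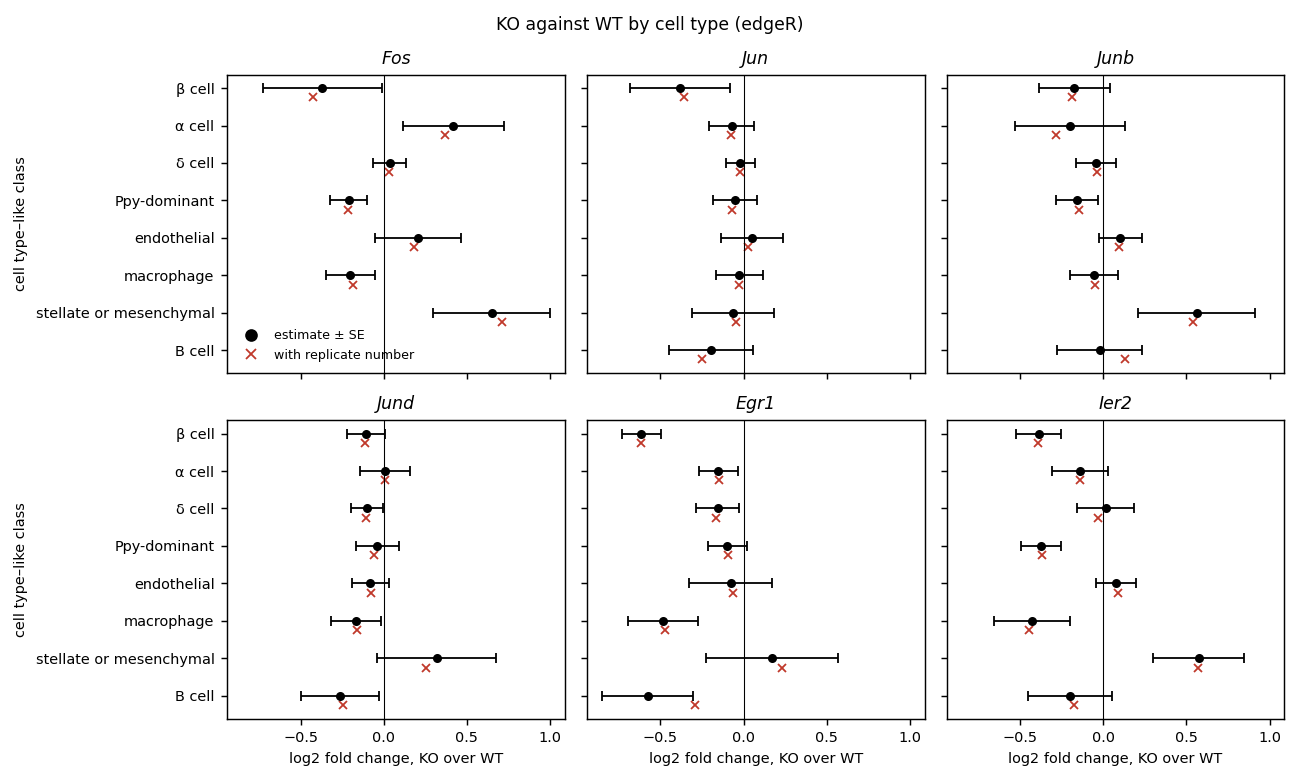
Log2 fold change of KO over WT (horizontal axes) for 6 genes in the 8 classes tested (vertical axes), with points and bars for the unpaired estimate ± SE and crosses for the fit with replicate number. *Egr1* was at −0.61 in β cell–like cells and between −0.16 and −0.09 in the other endocrine classes in either fit. In the unpaired fit it was at −0.58 in B cell–like (−0.29 with replicate number) and −0.48 in macrophage-like cells (−0.47). It was at −0.08 in endothelial-like and 0.17 in stellate or mesenchymal-like cells.

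Macrophage-like and stellate or mesenchymal-like cells had the widest spread of estimates. In macrophage-like cells, *Egr1* had a log2 fold change of −0.48 (SE 0.21, FDR 0.769) and *Atf3* 0.39 (SE 0.18, FDR 0.769). *Atf3* there had 298, 273, and 243 CPM in WT and 451, 287, and 278 CPM in KO, and the highest library was KO replicate 1. Stellate or mesenchymal-like cells had estimates above 0 for 7 of 8 tested members, led by *Nr4a1* at 1.04 (SE 0.42, FDR 1.00), from sums of as few as 22 cells in a library. Endothelial-like *Nr4a1* had 115, 96.7, and 142 CPM in WT and 156, 125, and 158 CPM in KO, a log2 fold change of 0.35 (SE 0.14, FDR 0.989). B cell–like *Egr1* had 139, 79.2, and 85.5 CPM in WT and 33.7, 68.4, and 57.8 CPM in KO without overlap (FDR 0.745), an order that 8.31% of the genes tested in B cell–like cells had, but the lowest value came from 12 cells.

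Whether the genotype difference itself differed between β cell–like cells and each other class was tested with limma-voom, with the library as a block. No member was called in any of the 7 terms, where 0.00961% of all tests were called. Of the members' 63 limma tests, 5 had an unadjusted p under 0.05, and the share over all genes was not computed for that level. For *Egr1*, limma gave a KO-minus-WT log2 fold change that was higher than in β cell–like cells by 0.51 (SE 0.31, FDR 1.00) in α cell–like cells, by 0.45 (SE 0.30, FDR 1.00) in δ cell–like cells, and by 0.87 (SE 0.34, FDR 0.996) in stellate or mesenchymal-like cells. The other differences for *Egr1* were 0.55 in *Ppy*-dominant, 0.58 in endothelial-like, 0.18 in macrophage-like, and 0.18 in B cell–like cells, all above 0. The test did not show that the *Egr1* difference was particular to β cell–like cells.

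*Atf3*, which failed the filter in α and δ cell–like cells, had few UMIs there. In α cell–like cells it had 27, 23, and 12 UMIs in WT and 7, 14, and 7 in KO, or 18.5, 14.0, and 5.14 CPM and 3.15, 4.50, and 2.44 CPM. In δ cell–like cells it had 9.36, 13.1, and 13.9 CPM in WT and 3.66, 7.90, and 8.12 CPM in KO. KO libraries lay below WT libraries in both classes, as they did for 5.29% of the genes tested in α cell–like and 5.84% of those tested in δ cell–like cells, and no test was run on *Atf3* there.

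Across 36 library-by-class sums of 6 classes, deviations from the class mean of the 9 members that averaged at least 20 CPM were compared with those of 6761 genes. The genes most like the members' mean deviation were *Bag3* (r = 0.73), *Fosl2* (r = 0.70), *Btg2* (r = 0.69), *Dusp1* (r = 0.66), *Hist1h1c* (r = 0.65), *Saraf* (r = 0.65), *Kctd20* (r = 0.63), *Skil* (r = 0.63), *Numa1* (r = 0.62), and *Txnip* (r = 0.62). *Fosl2* encodes a Fos family protein, *Btg2* an antiproliferative protein, and *Bag3* a cochaperone. Each member's own correlation with the mean of the other members ran from 0.10 for *Atf3* to 0.74 for *Junb*. Sums of 1 library share its depth and handling, so these values describe likeness only.

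Positions of the genes may limit some counts. *Jun* (chr4:95049034-95052222, minus strand), *Jund* (chr8:70698949-70700616, plus strand), and *Junb* (chr8:84974484-84978718, minus strand) overlap genes of the other strand, the antisense genes *Junos* and *Gm11175* and the protein-coding gene *Prdx2*, and *Atf3* (chr1:191170296-191218039, minus strand) overlaps the small RNA gene *Gm24748*. *Jun*, *Jund*, and *Ier2* (chr8:84661331-84662852, minus strand) have 1 exon each in GENCODE vM21, on mm10. Whether strand was used in counting is not given in the sources used here. *Fos* (chr12:85473890-85477273, plus strand), *Fosb* (chr7:19302696-19310051, minus strand), *Nr4a1* (chr15:101254269-101274795, plus strand), and *Npas4* (chr19:4984355-4990316, minus strand) overlap no other gene.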

How the data were processed

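The deposited values are counts of UMIs per gene and barcode, which the authors made with Cell Ranger 6.0.2 on mm10 (Seurat is also named in the submitters' processing notes) from 10x 3′ v3.1 libraries. Barcodes with at least 500 genes and at most 10% mitochondrial UMIs were kept, the top Scrublet scores were removed as doublets (0.8% per 1000 barcodes), and cells were clustered with scanpy 1.11.5 (2000 variable genes without the members and lists, 30 components, 15 neighbours, Leiden resolution 1). Clusters were named from markers, and hormones then assigned endocrine cells. The naming rules were set after the clusters were seen. UMIs were summed per library and class and given as CPM. KO was compared with WT by edgeR 4.0.16 (quasi-likelihood, TMM, Benjamini-Hochberg FDR below 0.05 and log2 fold change beyond 0.1), and for replicate number by FDR alone. Genotype-by-class terms used limma 3.58.1, and DESeq2 1.42.0 was an alternative. The edgeR genotype fits of β cell–like sums, with and without replicate number, were checked on simulated counts that held no replicate effect. That check was judged by the median error of the log2 fold change. The limma terms, DESeq2, and the replicate number term were not checked in this way. Deviations of same-numbered β cell–like libraries from genotype means correlated at r = 0.58, 0.52, and 0.18 over genes, so numbers were treated as pairs. In these cells and in endothelial-like, macrophage-like, and δ cell–like cells, every same-number correlation exceeded every correlation between different numbers. In δ cell–like cells the lowest same-number value was only 0.0237, against at most 0.00496 between different numbers. In the other classes tested this did not hold. No pair of libraries agreed within sampling noise. By the study's description the libraries come from 3 mice of each genotype, so p values measure the spread between mice and their libraries. Intervals are not given for sums. The 10 members and the 3 lists were chosen with earlier results of these data known. All members are named, with up to 3 genes per list by call or lowest p, and the 5 called for replicate number were named after their values were seen. In bulk-like sums of a class, fewer transcribing cells and less RNA per cell cannot be told apart. Promoter windows are from RefSeq (GRCm38.p6) for 8 members, without *Ier2*, which had no window, and *Egr1*, whose window was not used. Positions are from GENCODE vM21, which held 32158 of the 32285 gene identifiers.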

Additional observations from a re-analysis of the deposited data

How the results depend on the processing

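In β cell–like cells, *Ywhaz* was the only gene called in the unpaired fit, as fixed in advance by leaving out KO cells that held it. The counts called there were 1 gene and no member. With the replicate block these counts were 13 and 1, with DESeq2 5 and 1, and without the filter on low genes 6 and 1, and the member was *Egr1* each time. RLE normalization, all KO cells, no doublet calls, a mitochondrial limit of 20%, typing each barcode by hormone, leaving out hormone genes, thinning, and 4 settings chosen after seeing the data (cluster 0 alone, cluster 11 alone, the insulin-rich cluster added, both replicate 1 libraries left out) gave 1 gene and no member. Over these alternatives, the log2 fold change of *Egr1* ran from −0.67 to −0.33, and without single libraries or both replicate 1 libraries from −0.73 to −0.52. For *Fos*, leaving out libraries gave −0.92 (without KO replicate 1) to −0.03 (without WT replicate 1), also −0.15 without KO replicate 2, −0.18 without KO replicate 3, and −0.58 without both replicate 1 libraries. Without single libraries, *Jun* ran from −0.69 (without KO replicate 1) to 0.0055 and *Junb* from −0.42 (without KO replicate 1) to 0.035, both changing sign without WT replicate 1. The cause was not tested. No member was called in other classes (0) under the block, RLE, no doublet calls, or without any single library, nor in the genotype-by-class terms under RLE, and replicate number called 4 members under RLE and without hormone genes. The block changed no other member's call. Depth limits *Npas4*, *Atf3*, and *Fosb* in β cell–like cells.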
